A study of Mus musculus with 4 samples.

Results

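The subunits of the oxidative phosphorylation system were examined in hematopoietic progenitors of control and Nup358 knockout mice. The members were chosen by gene symbol (mt-Nd, mt-Co, mt-Cyt, mt-Atp, Nduf without the Ndufaf assembly factors, Uqcr, Cox4 to Cox8, Atp5 and Sdha to Sdhd, with Cox6a2 and pseudogene symbols left out), which gave 97 of the 27998 genes in the count tables. Of these, 84 are nuclear genes and 13 are genes of the mitochondrial genome. Complex I holds 45 members, complex II 4, complex III 9, complex IV 20 and complex V 19. The libraries were made from LSK cells, the lineage-negative, Sca1-positive and cKit-positive fraction of mouse bone marrow that contains stem cells and multipotent progenitors. The controls carried floxed Nup358 alleles (Nup358 fl/fl, wild-type in the labels) without Cre, and the knockouts had the same alleles with R26-CreERT2, a tamoxifen-regulated Cre expressed in all tissues. The mice were 9 to 12 weeks old, and each of the 2 libraries a genotype pooled cells of 3 mice. Cre itself is present only in the knockouts. The study deleted Nup358 by tamoxifen given to adult mice on consecutive days and examined the marrow within days of the injections, an acute deletion. In its bone marrow counts the controls were treated with tamoxifen as well. The treatment of the mice behind these libraries is not stated separately in the sources used here. The day on which these libraries were collected is not given in the sources used here. The labels do not say whether libraries of a genotype were prepared on separate days, so p-values measure the spread between 2 libraries a genotype, which may in part be technical.

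Oxidative phosphorylation makes ATP at the inner mitochondrial membrane. Complex I takes electrons from NADH and complex II, which is also succinate dehydrogenase of the citric acid cycle, takes them from succinate. Complex III passes them to cytochrome c, complex IV (cytochrome c oxidase) hands them to oxygen, and the proton gradient built on the way drives complex V, the ATP synthase. Most subunits are encoded in the nucleus and imported, whereas a small core of complexes I, III, IV and V is encoded by the mitochondrial DNA, and complex II is nuclear only. Quiescent stem cells are known to rely more on glycolysis, and respiration is known to increase as progenitors are primed and divide. Several subunits of complex IV have alternative isoforms from separate genes that are used in particular tissues.

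The RNA was counted at its 3′ end with unique molecular identifiers (UMIs), so that a UMI stands for 1 captured molecule and levels are given as CPM (UMIs of the gene on a counts-per-million scale of all UMIs in the library or class) or as a percent of all UMIs, both without a correction for transcript length. After removal of 269 of 25242 barcodes, 9198 and 6793 control cells and 4749 and 4233 knockout cells were kept, with 25035656 to 60244814 UMIs a library. Many barcodes recurred in another library with 3 or more times the UMIs. They were 14.8% and 81.8% of the barcodes of control replicate 1 and 2, and 65.3% and 18.8% of those of knockout replicate 1 and 2. These copied barcodes held 1.61% to 24.6% of a library's UMIs, and results are given with and without them. The sort genes Kit (73.5 to 96.4 CPM) and Ly6a, which encodes Sca1 (135 to 308), were detected in every library, and the T cell gene Cd3e was at most 0.335 CPM. The B cell gene Ms4a1 was at 10.6 and 9.01 CPM in the knockout libraries against 0.083 and 0.719 in the control libraries, and 83 and 152 knockout cells against 4 and 1 control cells formed a mature B-like cluster. Ranbp2, the gene of Nup358, was at 127 and 106 CPM in the control and 122 and 126 in the knockout libraries, but 3′ counts do not read the deleted exon and do not check the genotype.

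Nuclear-encoded subunits took nearly the same share of the RNA in both genotypes. All nuclear members together made up 2.67% and 2.65% of the UMIs in the controls and 2.63% and 2.70% in the knockouts, so the groups overlapped and the ratio of the means was 1.00. The mitochondrially encoded members made up 2.54% and 3.14% in the controls and 3.31% and 2.74% in the knockouts, again with overlap. Without copied barcodes the mitochondrial shares were 2.54% and 3.29% against 3.37% and 2.74%. The mitochondrial share therefore differed more between libraries of the same genotype than between the genotypes. The ratio of mitochondrial to nuclear subunit UMIs was 0.953 and 1.18 in the control and 1.26 and 1.01 in the knockout libraries, a log2 difference of 0.09. Its direction was not stable, since leaving out 1 library at a time gave -0.07 to 0.25, with values below 0 without control replicate 1 or without knockout replicate 1.

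By complex, nuclear complex I subunits held 0.851% and 0.864% of control UMIs and 0.848% and 0.886% of knockout UMIs. Complex II, the smallest, held 0.0471% and 0.0447% against 0.0473% and 0.0485%, and nuclear complex III 0.265% and 0.276% against 0.270% and 0.266%. For nuclear complex V, the shares were 0.875% and 0.845% in the control and 0.874% and 0.906% in the knockout libraries. In complexes I, III and V the control and knockout libraries overlapped, and in complex II the gap between the groups was smaller than the spread within them. Nuclear complex IV was the only set whose knockout libraries lay below both controls, with 0.626% and 0.623% in the control and 0.594% and 0.592% in the knockout libraries. The 95% Clopper-Pearson intervals, which cover counting error only, ran from 0.624% to 0.628% in control replicate 1 and from 0.590% to 0.594% in knockout replicate 2. The difference of the means was -0.031 percentage points, or -0.039 without the copied barcodes. Of the 14 tested genes of this set, 6 had a positive log2 fold change, with a median of -0.04 and a range from -1.04 to 1.21. Both knockout libraries lay below both controls for 2 of them (24.5% of all genes tested) and above for 3 (30.1%). The genes of this set did not move alike in the cell classes given below, whose parts of the libraries differed between the genotypes. An exact two-sided permutation test of 2 libraries against 2 cannot reach the 0.05 threshold, and none was made of these shares.

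**Figure D1:**
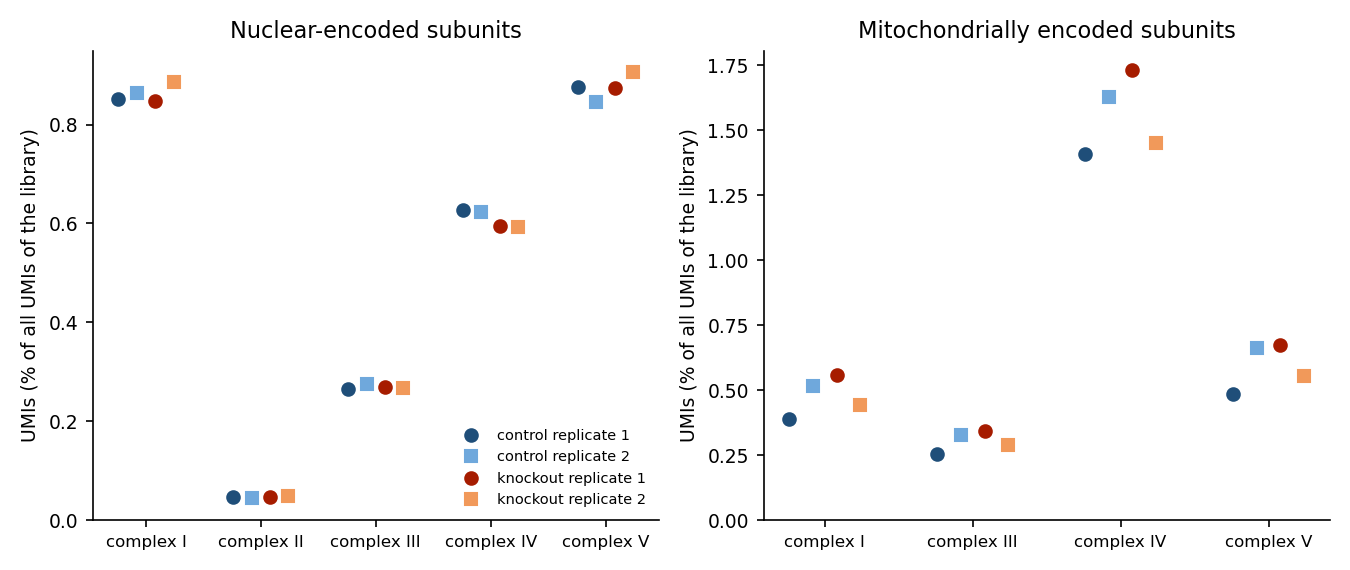
UMIs of each complex as a percent of all UMIs of the library (vertical axes, starting at 0), for nuclear-encoded subunits (left) and mitochondrially encoded subunits (right). Each point is 1 of the 4 libraries of LSK cells. Nuclear complex IV is the only set in which both knockout libraries lie below both controls, with 0.626% and 0.623% against 0.594% and 0.592%. Of its 14 tested genes, 6 had a positive log2 fold change. The mitochondrial sets overlap.

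Mitochondrial mRNAs included the 6 most abundant members and also some of the rarest. The core subunits of complex IV, mt-Co1, mt-Co2 and mt-Co3, were between 4277 and 6230 CPM in all 4 libraries, and mt-Atp6, the proton channel subunit of complex V, between 4805 and 6665. Cytochrome b of complex III, mt-Cytb, was at 2544 and 3275 CPM in the control and 3441 and 2898 in the knockout libraries. Of the complex I core, mt-Nd4 was highest in mean level, at 1301 and 1998 against 1950 and 1686, followed by mt-Nd1, at 890 and 926 against 1367 and 972. The levels of mt-Nd2 (784 to 1131), mt-Nd5 (397 to 485) and mt-Nd3 (129 to 254) were lower. The lowest was mt-Nd6, the only protein gene on the light strand, with 7.80 and 13.3 CPM in the controls and 16.0 and 8.66 in the knockouts. None of the 13 passed the test across all genes. Their log2 fold changes in knockout over control ran from -0.65 for mt-Atp8 to 0.33 for mt-Nd1 (adjusted p = 0.33, edgeR), with a median of 0.09. For mt-Nd1 both knockout libraries lay above both controls, and for the other 12 the genotypes overlapped.

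Some pairs of these genes overlap on the heavy-strand transcript and are known to stay together on 1 processed mRNA each. The shared bases are shown because the split of such an mRNA between its 2 gene symbols depends on where a read lies. They were read from the annotated transcripts of GRCm38 (plus strand, 5′ to 3′), and capitals mark the start codon of the downstream gene. The mt-Atp8 and mt-Atp6 reading frames share 43 bases at chrM:7927-7969, and mt-Nd4l and mt-Nd4 share 7 bases at chrM:10167-10173.
mt-Atp8 and mt-Atp6: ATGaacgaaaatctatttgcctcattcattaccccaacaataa
mt-Nd4l and mt-Nd4: ATGctaa

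Within the second pair, mt-Nd4l took 21.7% and 21.9% of the joint UMIs of mt-Nd4l and mt-Nd4 in the controls and 16.4% and 15.5% in the knockouts. This ratio was chosen after its values were seen and is a description without a test. The knockout libraries lay below the controls by more than the spread within a genotype, also without copied barcodes (21.9% and 23.5% against 16.4% and 15.4%). The level of mt-Nd4l alone was 361 and 560 CPM in the control and 382 and 308 in the knockout libraries, with a log2 fold change of -0.45 that did not pass the test (adjusted p = 0.29, edgeR). Without control replicate 1 it was -0.75, and without control replicate 2 it was -0.09. In the first pair, mt-Atp8 took 1.11% and 2.60% in the controls and 1.15% and 1.27% in the knockouts, so that control replicate 2 stood apart from the other 3 libraries. A gene not used in the counts is 100% identical to the 3′ end of mt-Nd4l over at least 50% of the compared bases. None was found for mt-Nd4, so the reads of this pair may not be equally unique. The same holds for mt-Atp6 (100%) beside mt-Atp8.

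Across all LSK cells, a quasi-likelihood test in edgeR, adjusted by the Benjamini-Hochberg method, called 126 of 13844 genes higher (0.91%) and 289 lower (2.09%) in the knockout at an adjusted p under 0.05, 3% in all. Of the 97 members, 93 passed the filter on low counts and were tested. None was called higher and 1, Cox6b2, was called lower. An unadjusted p under 0.05 was found for 6, a limit not counted over all genes here. DESeq2 called 1 member higher and 1 lower, beside 2.41% and 4.54% of all genes. The median log2 fold change of the 93 was 0.01 beside -0.01 for all genes, and 48 were positive. Both knockout libraries lay above both controls for 15 members (30.1% of all genes tested did) and below them for 8 (24.5% of all genes did). The plot of control against knockout levels shows most members close to the line of equal levels. The untested members were muscle, testis or rarely expressed isoforms: Cox8b had no UMI in any library, and Cox7b2, Cox8c and Ndufa4l2 had 1, 2 and 4 UMIs in all libraries together.

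**Figure D2:**
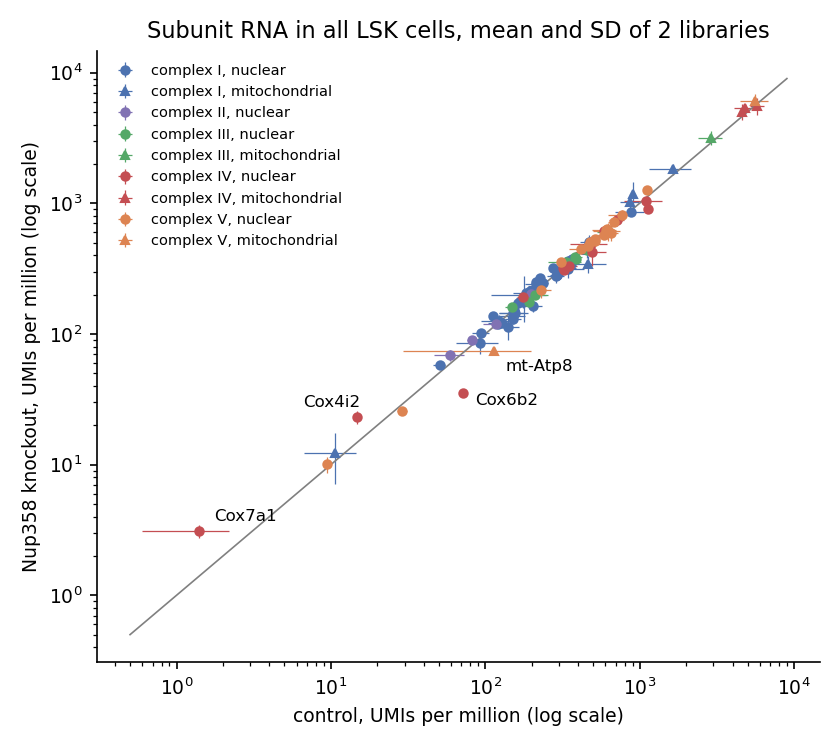
Level of each of the 93 tested subunit genes in all LSK cells, in CPM (UMIs-per-million on the axes) on log scales, in the control (horizontal) and knockout libraries (vertical). Points are means of 2 libraries, bars are standard deviations, the grey line marks equal levels, and shapes separate nuclear from mitochondrial genes. Cox6b2 lies below the line, at 71.3 against 35.5, and Cox4i2 and Cox7a1 lie above it.

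The member that fell was Cox6b2, the alternative isoform of subunit 6b of complex IV, which is known mainly from testis. It had 72.6 and 70.1 CPM in the controls and 36.4 and 34.7 in the knockouts. The genotypes did not overlap and the libraries of a genotype lay close together. The log2 fold change was -1.04 (SE 0.105, adjusted p = 0.012, edgeR), and without copied barcodes it was -1.19 (adjusted p = 0.011). Cox6b1, the isoform of most tissues, was at 455 and 523 CPM in the control and 512 and 498 in the knockout libraries, with a log2 fold change of 0.01. The Cox6b2 part of the joint UMIs of Cox6b1 and Cox6b2 was 13.7% (95% interval 13.4% to 14.1%) and 11.8% in the controls, and 6.64% and 6.50% in the knockouts. Cox6b2 lies at chr7:4751792-4753094 on the minus strand of GRCm38 and Cox6b1 at chr7:30616861-30626151, also on the minus strand. No gene near-identical to the 3′ end of either was found among the annotated transcripts.

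The other isoforms of complex IV did not pass the test over all LSK cells. Cox4i2, the alternative isoform of subunit 4 known from lung and from low oxygen, was at 15.5 and 14.1 CPM in the control and 21.3 and 24.9 in the knockout libraries. Both knockout libraries were above both controls, and the log2 fold change was 0.61 (SE 0.133, adjusted p = 0.060, edgeR). With 1 library left out at a time it ran from 0.49 to 0.72. Its partner Cox4i1 was at 1306 and 882 against 1005 and 1080 CPM, with overlap. Thus Cox4i2 took 1.17% and 1.57% of the joint UMIs in the controls and 2.08% and 2.25% in the knockouts. Cox7a1, the heart and skeletal muscle isoform of subunit 7a, was rare, with 50 and 49 UMIs in the control and 102 and 183 in the knockout libraries. This was 0.830 and 1.96 against 2.85 and 3.34 CPM, a log2 fold change of 1.21 (SE 0.403, adjusted p = 0.14, edgeR). Without control replicate 1 it was 0.62, and without control replicate 2 it was 1.88. The controls differed from each other more than the knockouts did. The common isoform Cox7a2 (316 and 378 against 317 and 344) and Cox7a2l, a subunit 7a relative known from respiratory supercomplexes (340 and 312 against 295 and 325), showed log2 fold changes of -0.10 each.

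Cox8a, the ubiquitous isoform of subunit 8, had the largest difference in mean level between the genotypes among the nuclear complex IV genes. It was at 1138 and 1113 CPM in the control and 902 and 908 in the knockout libraries, without overlap. The log2 fold change of -0.35 (SE 0.123) had an unadjusted p of 0.026 and did not pass the adjustment (adjusted p = 0.16, edgeR). Its emphasis here was chosen after its values were seen. Cox8b and Cox8c, the muscle and testis isoforms, were at or near 0 UMIs as given above. Cox8a lies at chr19:7215153-7217616 on the minus strand, Cox4i2 at chr2:152754173-152765037 on the plus strand and Cox7a1 at chr7:30184144-30186078 on the plus strand.

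Promoter sequences are shown for Cox6b2, its partner Cox6b1, and the isoforms Cox7a1 and Cox8a described above, so that the windows of common and tissue-restricted isoforms can be set side by side. They are RefSeq windows on GRCm38.p6, from 250 bases before to 50 bases after the annotated start, written 5′ to 3′ along the gene, and capitals mark CCGGAAG or its reverse complement, the core recognised by ETS factors. Cox6b1 is at chr7:30626065-30626364 (minus strand), Cox6b2 at chr7:4753045-4753344 (minus), Cox7a1 at chr7:30183921-30184220 (plus) and Cox8a at chr19:7217567-7217866 (minus).
Cox6b1: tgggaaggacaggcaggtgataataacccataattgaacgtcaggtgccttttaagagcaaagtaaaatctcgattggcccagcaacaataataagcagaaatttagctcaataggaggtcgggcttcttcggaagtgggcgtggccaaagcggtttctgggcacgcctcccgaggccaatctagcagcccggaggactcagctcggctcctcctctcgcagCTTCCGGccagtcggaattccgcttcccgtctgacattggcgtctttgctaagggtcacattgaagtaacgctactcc
Cox6b2: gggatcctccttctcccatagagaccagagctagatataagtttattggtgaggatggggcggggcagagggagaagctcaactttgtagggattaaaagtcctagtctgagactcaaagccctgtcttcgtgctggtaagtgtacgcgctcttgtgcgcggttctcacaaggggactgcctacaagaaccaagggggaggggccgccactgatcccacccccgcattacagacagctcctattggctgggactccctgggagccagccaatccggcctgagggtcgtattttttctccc
Cox7a1: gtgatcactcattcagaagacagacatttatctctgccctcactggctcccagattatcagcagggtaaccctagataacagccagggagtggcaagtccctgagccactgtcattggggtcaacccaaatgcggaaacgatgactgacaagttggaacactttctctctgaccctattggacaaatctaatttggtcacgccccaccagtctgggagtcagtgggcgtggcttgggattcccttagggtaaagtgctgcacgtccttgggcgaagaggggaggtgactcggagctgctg
Cox8a: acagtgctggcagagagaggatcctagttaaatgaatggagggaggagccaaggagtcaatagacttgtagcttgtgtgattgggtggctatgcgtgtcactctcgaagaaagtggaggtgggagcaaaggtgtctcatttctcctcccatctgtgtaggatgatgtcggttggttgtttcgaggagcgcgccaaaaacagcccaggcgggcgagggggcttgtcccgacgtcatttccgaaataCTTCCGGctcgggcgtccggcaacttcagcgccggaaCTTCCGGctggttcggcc
The common isoforms Cox6b1 and Cox8a hold the ETS letters in these windows and 17 and 19 CpG dinucleotides. Cox6b2 and Cox7a1 hold no match to these letters and 10 and 7 CpG dinucleotides. The window of Cox7a2, the common partner of Cox7a1, is not shown and holds no match either, with 20 CpG dinucleotides. The ETS letters therefore did not separate common from tissue-restricted isoforms.

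A promoter window was found for 70 of the 84 nuclear members, in 76 windows. Within them, the consensus motif of nuclear respiratory factor 1 (NRF1) occurred in 23.7% of member windows and in 4.60% of all 32851 windows on either strand. The ETS letters CCGGAAG occurred in 21.1% against 8.86%, the YY1 motif AAGATGGCG in 11.8% against 1.40%, and TATAAA in 10.5% against 13.6%. None of these 4 motifs contains another, and NRF1 letters were found for 17 members and ETS letters for 16. The median number of CpG dinucleotides was 19 in member windows and 7 in all windows. A match describes letters in this window and is not evidence of binding.

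In complex II the 4 succinate dehydrogenase subunits had log2 fold changes from -0.03 to 0.18, and none passed the test. The flavoprotein Sdha was at 133 and 103 CPM in the control and 120 and 117 in the knockout libraries, and the iron-sulphur subunit Sdhb at 202 and 197 against 189 and 215. The membrane anchors Sdhc and Sdhd were at 86.1 and 77.7 against 89.8 and 88.6, and at 50.2 and 68.9 against 73.8 and 64.3. Only Sdhc had both knockout libraries above both controls, by less than the spread within the control group.

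Of the 37 tested nuclear genes of complex I, 18 had a positive log2 fold change, with a range from -0.37 to 0.26. Ndufa4, which was first assigned to complex I and is now placed in complex IV, was the highest, at 744 and 1007 CPM in the control and 887 and 828 in the knockout libraries. Ndufs1, the large iron-sulphur subunit, was the lowest, at 53.9 and 47.4 against 56.2 and 59.2. Ndufa6 had the most negative value (184 and 225 against 173 and 152, log2 fold change -0.37) and Ndufb6 the most positive (110 and 115 against 136 and 140, 0.26), both without overlap. These extremes were picked after their values were seen, and neither passed the adjustment (adjusted p = 0.20 and 0.21, edgeR). In complex III, the 8 nuclear members had log2 fold changes from -0.16 to 0.08, and the lowest in level, the core protein Uqcrc2, was at 138 and 158 against 162 and 159 CPM.

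Nuclear complex V genes ranged from -0.19 to 0.17 on the log2 scale. The 3 genes for the membrane ring subunit c encode the same mature protein, and none passed the test. Atp5g2 was at 1095 and 1135 CPM in the control and 1199 and 1316 in the knockout libraries, Atp5g1 at 864 and 665 against 754 and 861, and Atp5g3 at 306 and 309 against 343 and 366. The genotypes overlapped for Atp5g1 and did not for the other two, whose log2 fold changes were 0.14 and 0.17. The 3′ end of Atp5g1 is 95.1% identical to a gene that is not used in the counts, so that some of its reads may not be unique. Their parts of the joint UMIs were 38.1%, 48.3% and 13.5% for Atp5g1, Atp5g2 and Atp5g3 in control replicate 1, and 31.5%, 53.8% and 14.7% in control replicate 2. In the knockout libraries they were 32.9%, 52.2% and 14.9%, and 33.9%, 51.8% and 14.4%, so that both lay between the controls for Atp5g1 and Atp5g2. The lowest member of complex V was Atp5s, at 9.08 and 9.91 against 11.1 and 9.06 CPM. Atp5sl, which fits the symbol rule but is known as a complex I assembly factor, was at 30.3 and 27.3 against 26.7 and 25.1.

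To compare progenitor types, the cells were clustered without the member genes, and clusters were named from marker lists. Neutrophil-like cells (led by Elane or Ctsg, granule protease genes) numbered 4438 and 2110 in the control and 982 and 637 in the knockout libraries. Megakaryocyte- and erythroid-like cells (ME-like, led by Car1 or Pf4) numbered 1976 and 1594 against 961 and 449. Cells of clusters with no lineage name numbered 2732 and 2955 against 2602 and 2799. The clusters behind these classes differed between libraries. In control replicate 1 the cells without a lineage name came mostly from a cluster led by the immediate early gene Egr1 (1650 of 1776 cells of that cluster), and in knockout replicate 2 mostly from clusters led by Prss34 (1499 of 1768) and Gm8730 (753 of 1029). The Prss34-led cluster also had Pf4, Car1 and Hbb-bt of the megakaryocyte and erythroid markers among its 10 leading genes, and a cluster led by Car1, 99.1% of it copied barcodes, had Car1 and Pf4. Their mean log2 folds over these markers were 0.89 and 1.06, under the limit of 1.5 for the name. They held 2 and 234 control and 33 and 1499 knockout cells, and 440 and 1651 against 1181 and 95, so that the cells without a lineage name included cells with megakaryocyte and erythroid genes. The study reports that clusters primed for these lineages expanded strongly in the knockout. The ME-like class was 21.5% and 23.5% of the control cells against 20.2% and 10.6% of the knockout cells. Without copied barcodes the class held 1520 of 7830 and 50 of 1200 control cells. In the knockout it then held 391 of 1589 and 172 of 3422 cells, and the genotypes overlapped. The ME-like class was not matched to the study's clusters and may hold different cells. Copied barcodes made up 4.93% to 90.2% of the neutrophil-like cells of a library, 23.1% to 96.9% of the ME-like cells and 9.22% to 75.4% of the others. In control replicate 2 only 50 ME-like cells were left without them. In sums over a library, fewer cells of a type and less RNA per cell cannot be told apart.

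Nuclear subunits took 2.84% and 3.13% of the UMIs of control neutrophil-like cells and 2.78% and 2.86% in the knockout. In ME-like cells they took 2.46% and 2.52% against 2.57% and 2.63%, and in cells without a lineage name 2.07% and 2.44% against 2.54% and 2.68%. The genotypes overlapped in neutrophil-like cells, and both knockout libraries were above both controls in the other 2 classes. At a Leiden resolution of 1.5 the ME-like shares overlapped (2.65% and 2.60% against 2.59% and 2.67%), and those without a lineage name stayed apart (2.26% and 2.45% against 2.59% and 2.70%). With cells thinned to 1000 UMIs before clustering, both knockout libraries were below both controls in neutrophil-like cells (2.89% and 3.13% against 2.78% and 2.82%). The log2 ratio of neutrophil-like cells over cells without a lineage name was 0.45 and 0.36 in the control and 0.13 and 0.09 in the knockout libraries. Mitochondrial subunits had the opposite order of classes, with log2 ratios of -0.64 and -0.31 in the control and -0.14 and -0.09 in the knockout libraries. These levels are descriptions, since the classes were made from the RNA of the same cells. The mature B-like cells of the knockout libraries had 3.95 and 2.83 mitochondrial UMIs for each nuclear subunit UMI, beside 1.13 and 0.903 in neutrophil-like, 1.26 and 1.10 in ME-like and 1.37 and 1.03 in cells without a lineage name of the same libraries. These B-like cells held 179028 and 204986 of the knockout UMIs. In the small lymphoid-like class (17 and 85 control and 56 and 132 knockout cells) the nuclear share was 2.95% and 2.73% against 2.66% and 2.70%, and in plasma cell-like cells (27 and 45 against 62 and 62) it was 2.32% and 2.50% against 2.47% and 2.59%. Copied barcodes were 88.2% and 97.6% of control and 82.1% and 3.79% of knockout lymphoid-like cells, which left 2 and 2 control cells. In plasma cell-like cells they were 48.1% and 86.7% against 24.2% and 12.9%.

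In neutrophil-like cells, 325 of 11457 genes were called higher (2.84%) and 449 lower (3.92%) by edgeR, 6.76% in all, and 1 member was called in each direction. Cox6b2 was again lower, at 63.4 and 64.7 CPM in the controls and 32.0 and 35.3 in the knockouts. The log2 fold change was -0.93 (SE 0.146, adjusted p = 0.0052, edgeR), and -1.06 without copied barcodes (adjusted p = 0.020). Cox4i2 was called higher in this class, at 17.2 and 16.3 against 25.9 and 32.2 CPM (log2 fold change 0.79, SE 0.166, adjusted p = 0.020, edgeR). Without copied barcodes its log2 fold change was 1.00 (adjusted p = 0.039). The median over the 93 members was -0.05 beside 0.00 for all genes tested. Both knockout libraries lay above both controls for 13 members (26.5% of all genes) and below them for 12 (25.2%). Without knockout replicate 1 the log2 fold change of Cox6b2 was -0.83, and without knockout replicate 2 that of Cox4i2 was 0.60. Neither gene was called in that fit. The share of nuclear complex IV was 0.667% and 0.746% in the control and 0.627% and 0.625% in the knockout libraries. The other 2 classes did not share this direction. The median log2 fold change of the 14 tested nuclear complex IV genes was -0.09 in neutrophil-like cells. It was 0.17 in ME-like cells and 0.26 in cells without a lineage name.

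The mitochondrial members of neutrophil-like cells had a median log2 fold change of 0.21, and 11 of 13 were positive. None passed the test. The mitochondrial to nuclear ratio was 0.782 and 0.865 in the control and 1.13 and 0.903 in the knockout libraries, without overlap. At a Leiden resolution of 1.5 the genotypes overlapped (0.787 and 0.863 against 1.10 and 0.781). An Elane-led cluster with 1649 of its 1764 cells from control replicate 1 had a mitochondrial share of 1.79%. The share was 2.71% in another Elane-led cluster, with 395 of 885 cells from knockout replicate 2. In a Ctsg-led cluster with 142 of 260 cells from knockout replicate 1 it was 3.45%. Genotype and these clusters cannot be told apart in much of the neutrophil-like class. Cox8a in these cells was at 1209 and 1329 CPM in the control and 928 and 917 in the knockout libraries (log2 fold change -0.47, adjusted p = 0.14, edgeR). With 1 library left out at a time its log2 fold change ran from -0.59 to -0.35.

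In ME-like cells, 1 of 11242 genes was called higher (0.0089%) and 38 lower (0.338%), 0.347% in all, and Cox6b2 was the 1 member among the latter. DESeq2 also called 0 members higher and 1 lower, beside 0% and 0.205% of all genes. By edgeR 6 members had an unadjusted p under 0.05, a limit not counted over all genes here. Cox6b2 was at 108 and 58.5 CPM in the control and 38.5 and 34.3 in the knockout libraries. The log2 fold change was -1.21 (SE 0.213, adjusted p = 0.032, edgeR), -1.52 without copied barcodes (adjusted p = 0.020), and the control libraries differed from each other by more than the knockout libraries did. With a minimum of 500 genes per cell the call was lost (log2 fold change -1.20, adjusted p = 0.10, edgeR), and without control replicate 1 the log2 fold change was -0.68. Cox4i2 in ME-like cells was at 11.1 and 16.6 against 16.7 and 21.6 CPM (0.57, adjusted p = 0.43, edgeR). Without control replicate 1 its log2 fold change was 0.14, and without control replicate 2 it was 0.79. Of the 93 members tested, 71 had a positive log2 fold change, and the median was 0.10 beside 0.00 for all genes. Both knockout libraries lay above both controls for 30 members (18.3% of all genes) and below them for 7 (21.6%), and the median without control replicate 1 was 0.04. Cox7a1 in ME-like cells was at 0.369 and 1.38 against 2.46 and 4.95 CPM and did not pass (adjusted p = 0.24, edgeR). Without control replicate 2 its log2 fold change was 3.14 and passed (adjusted p = 0.0010, edgeR).

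In the cells without a lineage name, 18 of 12395 genes were called higher (0.145%) and 140 lower (1.13%) by edgeR, 1.27% in all. No member was among them. An unadjusted p under 0.05 was found for 12 members, a limit not counted over all genes here. DESeq2 called 1 member higher and 1 lower in this class, beside 1.92% and 3.18% of all genes. Both knockout libraries lay above both controls for 47 members (24.2% of all genes) and below them for 6 (29.5%). Of the nuclear members, 69 of 80 had a positive log2 fold change, with a median of 0.27 beside 0.00 for all genes. The medians were 0.26 for complex I, 0.29 for complex II, 0.28 for complex III, 0.26 for complex IV and 0.26 for complex V, whereas the 13 mitochondrial members had a median of -0.02. Without control replicate 1 the median over all members was 0.05, and without control replicate 2 it was 0.46. The nuclear share also differed between clusters that came mostly from 1 library. It was 1.94% in the Egr1-led cluster, in which 1650 of 1776 cells were from control replicate 1, and 2.17% in a Wfdc17-led cluster, in which 571 of 631 cells were from control replicate 2. In the Prss34-led cluster, mostly of knockout replicate 2, it was 2.72%. In a Jchain-led cluster with 342 and 95 control and 546 and 135 knockout cells, the nuclear share was 2.38% and 2.57% against 2.57% and 2.68%. The genotype and these clusters cannot be told apart for most of this class.

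Cox6b2 in cells without a lineage name was at 71.1 and 75.3 CPM in the control and 41.7 and 35.9 in the knockout libraries (log2 fold change -0.88, adjusted p = 0.062, edgeR), and without copied barcodes it passed (-1.03, adjusted p = 0.031). Cox4i2 was at 12.9 and 12.7 against 21.4 and 24.8 (0.91, adjusted p = 0.064, edgeR), and also passed without copied barcodes (1.05, adjusted p = 0.037). With 1 library left out at a time, the log2 fold change ran from -0.99 to -0.74 for Cox6b2 and from 0.76 to 1.03 for Cox4i2. The Cox6b2 part of the Cox6b1 and Cox6b2 UMIs was lower in both knockout libraries than in both controls in each class. It was 11.5% and 9.25% against 5.51% and 6.21% in neutrophil-like cells, 20.6% and 11.7% against 7.28% and 6.65% in ME-like cells, and 17.2% and 13.5% against 7.73% and 6.73% in cells without a lineage name. The mt-Nd4l part of mt-Nd4 and mt-Nd4l was 22.0% and 21.6% against 16.0% and 15.7% in neutrophil-like cells and 21.3% and 22.5% against 16.9% and 15.3% in cells without a lineage name. In ME-like cells it was 21.2% and 17.3% against 16.2% and 15.2%, and 21.5% and 22.9% against 16.2% and 15.2% without copied barcodes.

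**Figure D3:**
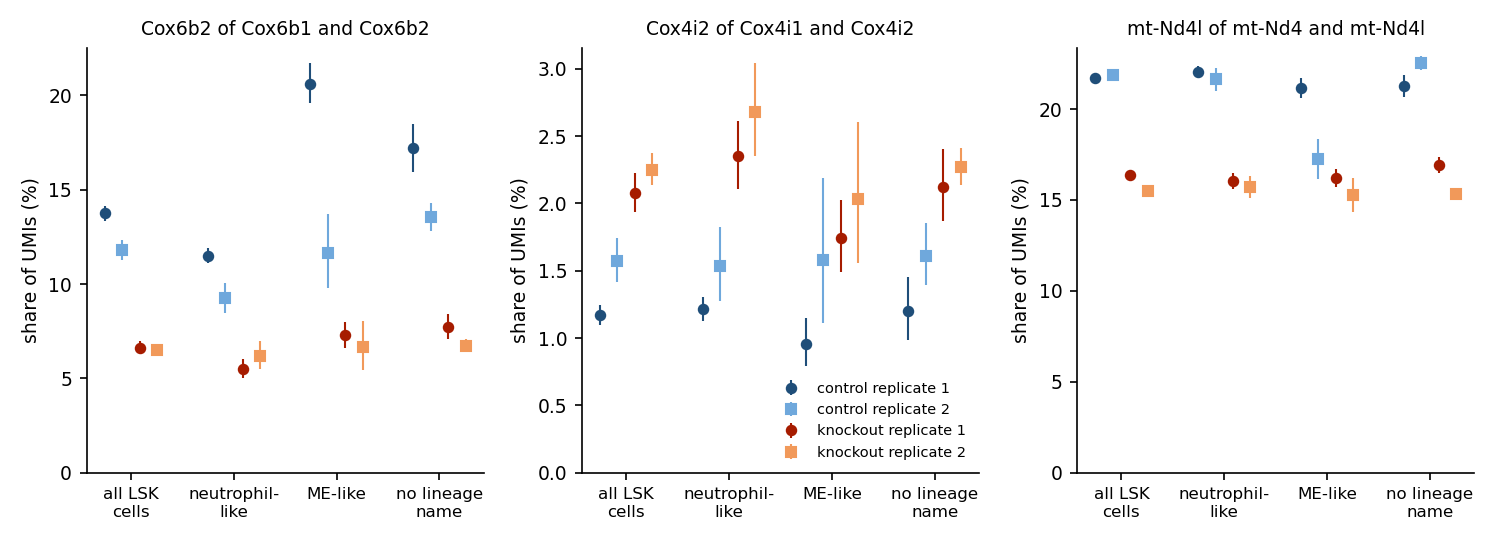
Share of a gene in the joint UMIs of its pair, in percent, in all LSK cells and in 3 classes of cells (vertical axes start at 0). Each point is 1 library and bars are 95% Clopper-Pearson intervals for counting error. In all LSK cells Cox6b2 goes from 13.7% and 11.8% in the control to 6.64% and 6.50% in the knockout libraries, Cox4i2 goes from 1.17% and 1.57% to 2.08% and 2.25%, and mt-Nd4l from 21.7% and 21.9% to 16.4% and 15.5%.

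The knockout effect was compared between classes in joint fits. For neutrophil-like cells against cells without a lineage name, 177 of 12528 genes (1.41%) differed in their knockout effect by edgeR. Of the 93 members tested, 5 were called, each with a lower fold change in neutrophil-like cells: Atp5g1, Uqcrq and Uqcr11 of complexes V and III, and Cox5a and Cox7b of complex IV. An unadjusted p under 0.05 was found for 73 of the 93 members (78.5%) and 22.6% of all genes. The median difference was -0.35 for nuclear members and 0.25 for mitochondrial members, beside -0.02 for all genes. The 5 calls rest on the fit of all 4 libraries and were not kept without either knockout replicate. With 1 library left out at a time, the median difference over all members ran from -0.39 to -0.25. Without copied barcodes 32 members were called, beside 415 of 12443 genes (3.34%).

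The values of Atp5g1 show the pattern. In neutrophil-like cells it was at 982 and 921 CPM in the control and 864 and 996 in the knockout libraries, with overlap. In cells without a lineage name it was at 492 and 527 against 668 and 839, with both knockout libraries above both controls. The difference in log2 fold change was -0.66 (SE 0.0975, adjusted p = 0.034, edgeR), made up of a log2 fold change of -0.03 in neutrophil-like cells and 0.61 in cells without a lineage name, whose clusters differ between libraries. For ME-like cells against cells without a lineage name, 0 of 12394 genes (0%) were called by edgeR, although 1000 genes and 10 members had an unadjusted p under 0.05. For ME-like against neutrophil-like cells 25 of 11926 (0.21%) were called and no member. An unadjusted p under 0.05 was found there for 16 members (17.2%) and 1026 genes (8.60%). The median difference over members here was 0.11, with 0.18 without control replicate 1 and 0.07 without control replicate 2. For Cox6b2 the difference between neutrophil-like cells and cells without a lineage name was -0.07 (SE 0.148), and between ME-like and neutrophil-like cells it was -0.27 (SE 0.264), so that no difference between the classes was shown, within errors that allow one.

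**Figure D4:**
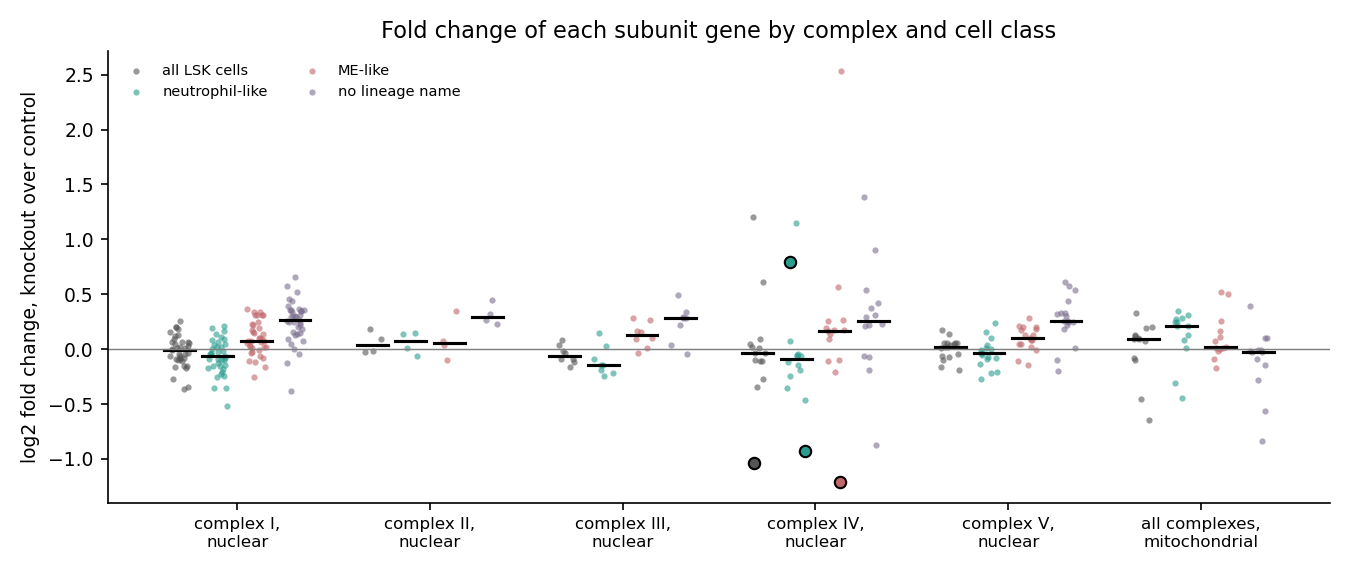
Log2 fold change of knockout over control (vertical axis) of each tested subunit gene, grouped by complex and genome, in all LSK cells and in 3 classes. Black lines are medians and outlined points passed the adjusted threshold of 0.05. Nuclear members in cells without a lineage name lie mostly above 0, with a median of 0.27, and the outlined points are Cox6b2 in all LSK, neutrophil-like and ME-like cells and Cox4i2 in neutrophil-like cells.

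The members also varied with the amount of RNA in a cell. Cells that were not copies were divided by their UMIs into 4 bins of equal size within each library. From the lowest to the highest bin, the nuclear share went from 2.00% to 2.90% in control replicate 1 and from 2.07% to 3.08% in control replicate 2, and from 2.23% to 2.68% and from 2.45% to 2.74% in the knockout libraries. The mitochondrial share went the other way, from 3.59% to 2.01% and from 3.74% to 2.92% in the controls and from 4.36% to 3.09% and from 3.47% to 2.44% in the knockouts. Within classes the nuclear share did not go the same way in each library: in neutrophil-like cells it went from 2.40% to 2.97% and from 2.75% to 3.48% in the controls, from 2.70% to 2.78% in knockout replicate 1 and from 2.91% to 2.80% in knockout replicate 2. In ME-like cells of control replicate 2, with 12 or 13 cells a bin, the mitochondrial share was 2.89% in the lowest and 3.09% in the highest bin. Over all cells, the span of the nuclear share was larger in both control libraries than in both knockout libraries, without a test. The median UMIs of a cell that was not a copy were 6251 and 13176 in the control and 17707 and 14399 in the knockout libraries, so depth differed between the libraries that were compared, and its part in the class differences was not tested.

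**Figure D5:**
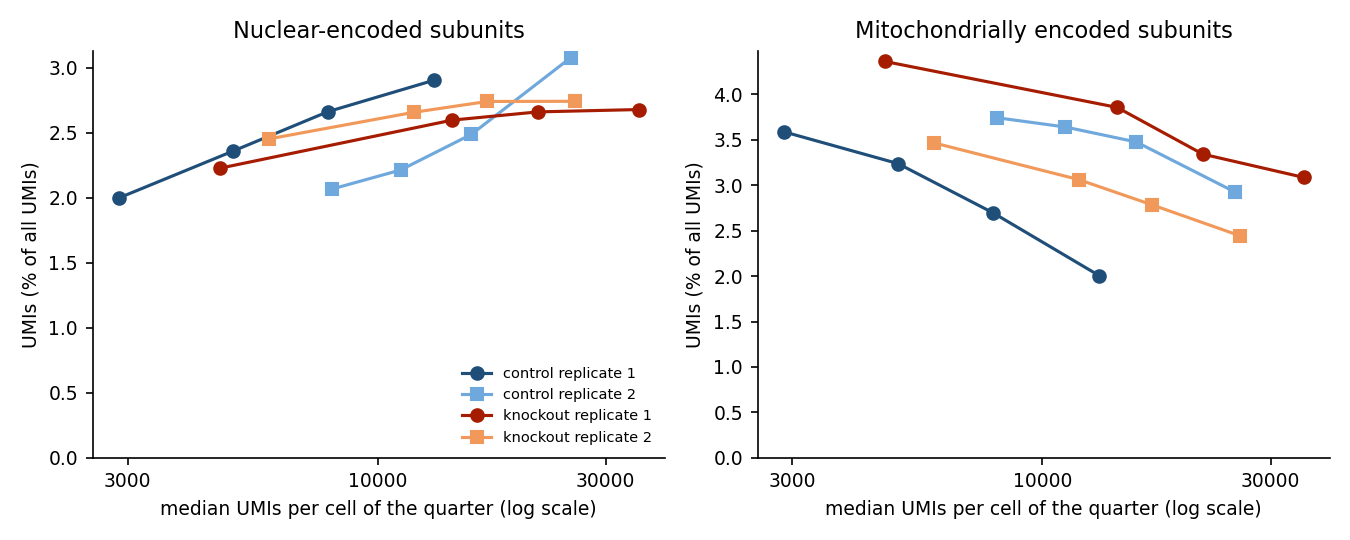
UMI share of nuclear (left) and mitochondrial subunits (right) in 4 bins of the cells of each library ordered by UMIs per cell (the vertical axes are percents of UMIs). The horizontal log axis gives the median UMIs of the bin and copied barcodes are left out. Within each library the nuclear share is lowest in the first bin, and the mitochondrial share is highest there, for example 3.59% against 2.01% in the last bin of control replicate 1.

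Genes around the respiratory chain were counted over lists. In all LSK cells edgeR called no gene in either direction among 46 assembly factors, 12 electron carriers and accessory subunits, 18 genes of the citric acid cycle, 28 regulators of mitochondrial RNA and biogenesis, 77 genes of the mitochondrial ribosome and 4 uncoupling genes. Their median log2 fold changes ran from -0.09 to 0.13, and between 1 and 5 genes of each list had an unadjusted p under 0.05. The electron carrier cytochrome c (Cycs) was at 211 and 231 CPM in the control and 245 and 245 in the knockout libraries, malate dehydrogenase Mdh2 at 364 and 331 against 361 and 404, and Slc25a5, the main ADP/ATP carrier, at 747 and 756 against 772 and 789. Among 25 genes of glycolysis and lactate metabolism 1 was higher and 2 were lower. Thus 3 of 210 genes of all lists were called (1.43%), beside 3% of all genes. Slc16a1, a lactate and pyruvate transporter, was at 24.8 and 22.7 against 36.3 and 36.9 CPM (log2 fold change 0.59, adjusted p = 0.047, edgeR). Ldhb, the lactate dehydrogenase subunit known for turning lactate to pyruvate, was at 77.2 and 85.2 against 43.0 and 46.8 (-0.89, adjusted p = 0.021, edgeR). Pdk2, a kinase that inhibits pyruvate dehydrogenase, was at 4.68 and 5.07 against 2.65 and 2.12 (-1.07, adjusted p = 0.049, edgeR). The most abundant glycolytic gene, Gapdh, was at 1796 and 1757 against 1787 and 1895. Slc16a1 did not pass without copied barcodes (adjusted p = 0.064, edgeR). With 1 library left out at a time, the log2 fold change ran from 0.54 to 0.64 for Slc16a1 and from -1.23 to -0.91 for Pdk2. Neither of these 2 calls was kept without knockout replicate 2.

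In neutrophil-like cells 8 of 208 tested genes of these lists were called (3.85%), beside 6.76% of all genes. Ldhb (68.7 and 72 CPM in the control against 31.0 and 27.2 in the knockout libraries, log2 fold change -1.27), the complex II assembly factor Sdhaf1 (-0.72), hexokinase 3 (Hk3, -0.74), enolase 1 (Eno1, -0.59) and uncoupling protein 2 (Ucp2, -0.58) were lower. Slc16a1 (0.70), pyruvate dehydrogenase kinase 1 (Pdk1, 0.55) and the mitochondrial RNA helicase Supv3l1 (0.67) were higher. Adjusted p-values by edgeR ran from 0.0010 for Ldhb to 0.040 for Pdk1, and without copied barcodes only Ldhb, Sdhaf1 and Hk3 passed. In cells without a lineage name 2 of 209 list genes were called (0.957%), beside 1.27% of all genes. By edgeR Slc16a1 (1.07, adjusted p = 0.037) was higher and Ldhb (-0.93, adjusted p = 0.045) lower. None of 76 mitochondrial ribosome genes was called there. Of these, 73 had a positive log2 fold change, with a median of 0.33 beside 0.00 for all genes. As given above, genotype and clusters cannot be told apart for most of this class. None of 208 list genes was called in ME-like cells, beside 0.347% of all genes, where up to 4 of a list had an unadjusted p under 0.05.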

How the data were processed

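LSK cells of 2 control and 2 knockout pools were sorted and profiled by 10x 3′ single-cell RNA-seq. Per the labels and the study's methods, the authors aligned the reads, counted UMIs per gene and cell and called cells with Cell Ranger 3.1 on mm10, and deposited the resulting whole-number counts. The study counts fewer cells than the files hold barcodes, and the filter behind this is not given in the sources used here. Here barcodes under 200 genes or above 10% mitochondrial UMIs were removed, which left 25035656 to 60244814 UMIs a library. The mitochondrial limit uses member genes and was therefore also left out as an alternative. No doublet caller was run.

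Cells were clustered without the members in scanpy 1.11.5 (10000 UMIs per cell, log, 2000 variable genes, 10 principal components, 15 neighbours, Leiden resolution 1). A cluster was named where at least 3 markers of a list were at 2 or more times the median of the other clusters with a mean log2 fold of at least 1.5. This last limit was set after its output was seen. Counts were summed per library and class and tested on the counts with edgeR 4.0.16 (quasi-likelihood, TMM, Benjamini-Hochberg over all genes tested, R 4.3.3), with DESeq2 1.42.0 as an alternative. The difference in knockout effect between classes was tested in a joint edgeR fit in which each library was a block. In 3 simulated data sets for all LSK cells (13844 genes), 68.2% of genes changed by 1 on the log2 scale were recovered and 6.33% of those changed by 0.5. The values were 72.5% and 3.33% in neutrophil-like cells and 68.3% and 3% in ME-like cells. In cells without a lineage name they were 58% and 0.5%. A missed call therefore says little about small changes.

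Sequences came from RefSeq promoter windows (GRCm38.p6) and annotated GRCm38 transcripts. By BLAST 2.17.0, 20 members had a gene at least 95% identical over at least 50% of their last 300 bases, and 1 of these genes, a copy of Atp5h, was in the files.

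The members, the lists and the emphasis were chosen with earlier results of these data known. The text names the 13 mitochondrial genes, members past the threshold, the highest and lowest member of each complex, the isoform groups, complex II, and list genes past the threshold or highest in level, and states where a gene was picked after its values were seen. Alternatives left out copied barcodes or the mitochondrial limit, raised the minimum to 500 genes, changed the tool, scaling, library size, low-count filter or block, left out each library, and for levels by class used a Leiden resolution of 1.5 or cells thinned to 1000 UMIs. Nothing in the labels pairs the libraries by number, and the replicate differences correlated at -0.04 over 13844 genes and -0.65 over the 93 members, so that a crossed pairing was an alternative. Intervals are 95% Clopper-Pearson and cover counting error only.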

Additional observations from a re-analysis of the deposited data

Results flagged for a closer look

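In 5 members the knockout effect differed between neutrophil-like cells and cells without a lineage name, in an edgeR test of that difference itself. The difference in log2 fold change (neutrophil-like minus the others) was -0.66 for Atp5g1, a gene of the complex V ring, and -0.66 for Uqcrq, a small complex III subunit. It was -0.61 for Cox5a and -0.50 for Cox7b of complex IV, and -0.50 for Uqcr11 of complex III. Adjusted p-values ran from 0.034 to 0.046. Uqcrq was at 471 and 497 CPM (counts-per-million of UMIs) in control and 441 and 437 in knockout neutrophil-like cells, and at 242 and 284 against 347 and 372 in cells without a lineage name. Cox5a was at 867 and 883 against 788 and 901, and at 474 and 543 against 642 and 793. Uqcr11 was at 495 and 605 against 493 and 477, and at 307 and 397 against 416 and 423, and Cox7b at 325 and 426 against 348 and 316, and at 225 and 306 against 331 and 304. With 1 library left out, the differences ran from -0.77 to -0.52 for Atp5g1, -0.75 to -0.54 for Uqcrq and -0.71 to -0.48 for Cox5a. They ran from -0.56 to -0.42 for Uqcr11 and from -0.55 to -0.44 for Cox7b. The 5 calls rest on the fit of all 4 libraries and were not kept without either knockout replicate. Without copied barcodes the differences were -0.78, -0.81, -0.74, -0.61 and -0.63 for Atp5g1, Uqcrq, Cox5a, Uqcr11 and Cox7b. The part of library-specific clusters in this result was not tested.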

How the results depend on the processing

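Leaving out 1 library at a time changed the number of members called, and the share of all genes called changed as well. In each class, the fits with the most members called also had a larger share of all genes called than the fit of all libraries. Such a fit leaves 1 library in a genotype, so the counts below are not read as a result about the members. In all LSK cells it gave 0 to 4 members higher and 1 to 4 lower, in neutrophil-like cells 0 to 6 and 0 to 12, in ME-like cells 0 to 13 higher, and in cells without a lineage name 0 to 34 and 0 to 3. For the differences in knockout effect it gave 0 to 45 members (neutrophil-like minus no lineage name), 0 to 9 (ME-like minus no lineage name) and 0 to 21 (ME-like minus neutrophil-like); this was added after the data were seen. For these differences too, a larger share of all genes was called where the most members were called than in the fit of all libraries. For neutrophil-like cells against cells without a lineage name, the fits with no member called had no gene called either. The log2 fold change of Cox8a ran from -0.23 to 0.053 in ME-like cells, positive without control replicate 1. It ran from -0.25 to 0.17 in cells without a lineage name, positive without control replicate 2. Without the low-count filter 2 members were higher and 3 lower in all LSK cells, beside 865 and 1211 of 19196 genes (126 and 289 before). In neutrophil-like cells 2 were higher and 4 lower, beside 3.40% and 5.38% of all genes. In cells without a lineage name 3 were higher and 2 lower (4.08% and 5.33%), and 1 was higher in ME-like cells (0.467%). DESeq2 called 1 member higher in all LSK cells, beside 333 genes higher and 628 lower. In cells without a lineage name it called 1 higher and 1 lower, beside 1.92% and 3.18% of all genes. With the replicate block 2 members were higher in all LSK cells, beside 381 genes higher and 599 lower. In cells without a lineage name 9 were higher and 2 lower, beside 8.22% and 9.47% of all genes. Replicate differences correlated at -0.04 between genotypes over all genes and at -0.65 over the 93 members, which runs against the numbers. With replicates crossed, 1 member was higher in all LSK cells (1.68% of all genes) and 2 were lower in neutrophil-like cells (7.42%). In cells without a lineage name 1 was higher and 1 lower (1.44% and 3.43%). Without copied barcodes 1 member was higher and 1 lower in cells without a lineage name (1.70% and 3.23% of all genes). The knockout effect of 32 members differed between neutrophil-like cells and these (3.34% of all genes). In all LSK cells nuclear complex IV then differed by -0.039 percentage points. A minimum of 500 genes left 0 members lower in ME-like cells, beside 0.142% of all genes. The causes were not tested. Of the values that answer a comparison, 42 moved and 172 stayed within a set limit. The limit was a factor for counts of members and the spread between libraries for shares and ratios. It does not check direction, and the mitochondrial to nuclear ratio stayed within it although its log2 difference changed sign. The mitochondrial limit could not be lifted within classes, since removed cells have no class, and thinned clustering gave no ME-like class.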
